A study of Mus musculus with 12 samples.

Results

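Mouse liver RNA taken 24 h after bulaquine was compared with liver RNA of vehicle-treated mice on 4 spotted 2-colour arrays, and those 4 arrays are described here out of 12 in the series. On every array a bulaquine sample was hybridised together with a vehicle sample. Bulaquine RNA carried Cy5 on F1 and F2 and Cy3 on R1 and R2, as the arrays are called. Of 23040 spots per array, 15699 (68.1%) had a background-corrected intensity above 0 in both dyes on all 4 arrays and were tested, and 7341 were not. The other 8 arrays hold the same comparison at 6 h and 12 h. The series text gives n = 4 for the mice without saying whether this is per group or per time, while the sources used here do not give strain, sex, age, dose, route or the vehicle itself. The labels do not say whether F1 and R1 share RNA or whether animals were pooled, so p-values cover the variation from array to array alone, part of it perhaps technical.

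Bulaquine, an antimalarial, is converted in the body to primaquine, and both are aminoquinolines. The titles name hepatotoxicity, and the 24 h arrays ask which liver transcripts differ 1 day after the drug. Primaquine is oxidised in the liver to reactive metabolites, and drugs of this class are known for oxidative stress on red blood cells. The liver answers such compounds with enzymes of oxidation (phase I), enzymes that attach glutathione or other groups (phase II), and the supply of cysteine from which glutathione is made. Its resident macrophages, the Kupffer cells, take up damaged red cells and recycle their heme and iron.

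Gene names rest on an inferred layout. The spots form 48 blocks of 480. Names were paired with the spots by moving the blocks between the row and column order of a grid of 12 by 4. The direction was chosen as the one that puts the metallothionein genes Mt1 at spot 12998 and Mt2 at spot 9645. Their places are thus no check of the layout. Under that order the vehicle signal of all 6 measured hepatocyte markers of a list of 16 lay above the 90th percentile of tested probes. The other direction was not compared, so this does not test the layout. The transferrin gene Trf stood at the 99.9th percentile with the albumin gene Alb above it, the apolipoprotein gene Apoa1 at the 99.5th, the transthyretin gene Ttr at the 98.6th, the fibrinogen gene Fga at the 97.0th and the tryptophan dioxygenase gene Tdo2 at the 92.4th. Of these 6, 0 were called at 24 h by limma at an adjusted p under 0.05, and Ttr (-0.36) was the only one with an unadjusted p under 0.05. The vehicle signal of a spot named Gdap1, which is not on that list, was as high, at the 99.98th percentile. Of the tested probes 10582 carried 1 gene symbol, 162 several and 4955 none, and the named ones covered 7177 genes.

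The arrays were dim. The median signal-to-noise score of a spot lay between 0.761 and 1.10 for Cy3 and between 0.790 and 1.15 for Cy5. Between 9.90% (R1) and 18.6% (R2) of spots had an intensity of 0 in either dye. Across the 15699 probes, the log2 ratios of drug over vehicle correlated at 0.23 between F1 and F2 and at 0.13 between R1 and R2. Between an F and an R array the correlation ran from -0.12 to -0.08, and between the mean of the F arrays and the mean of the R arrays it was -0.16. These are correlations across probes, which are not independent replicates. Most of the variation shared by arrays of one dye orientation thus did not carry over to the other. The fit includes a dye effect for each probe, and that effect was itself called for 3262 probes.

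**Figure D1:**
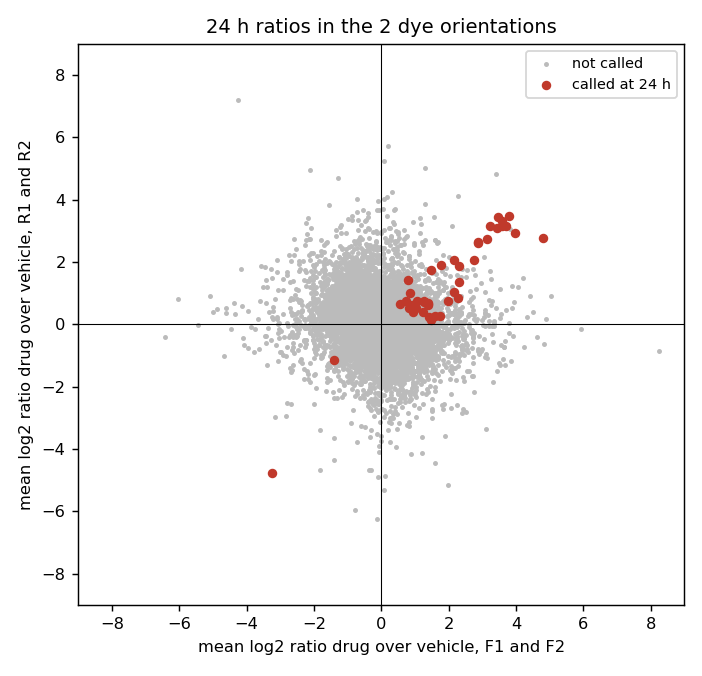
Each point is 1 of 15699 tested probes, placed by its mean log2 ratio of bulaquine over vehicle on the arrays with the drug in Cy5 (F1 and F2, horizontal axis) and in Cy3 (R1 and R2, vertical axis). The cloud has no upward slope (correlation -0.16), and the 42 called probes, in red, lie at the upper right and lower left, where both orientations point the same way.

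At 24 h few liver transcripts passed the test, and most of those that did had risen. By limma at an adjusted p under 0.05, 42 of 15699 probes were called (0.268%), of which 40 were higher (0.255%) and 2 lower (0.0127%) after bulaquine. Of the higher probes 16 had 1 gene symbol and 24 had none, and both lower probes had 1. All 42 had 1 sign on the 4 arrays, as did 6.26% (higher) and 8.06% (lower) of all tested probes. Without regard to multiple testing, 1655 probes had an unadjusted p under 0.05, 787 higher and 868 lower. The split was 73 higher and 24 lower when the background was corrected by normexp, a method that models background and signal together. Among the called higher probes 15 lay above a log2 ratio of 2 and 14 below 1.

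The count depended on the array left out of the limma fit. It was 0 without F2 (1283 at an unadjusted p under 0.05), 10 without R1, 19 without R2 and 21 without F1. The 24 h arrays fitted alone gave 0 calls, with 1194 at an unadjusted p under 0.05. Of the 40 higher probes, 21 had a larger ratio on both F arrays than on either R array and 3 the reverse. In 14 of the 40 (35%) the spot lay at positions 121 to 180 of its block, a stretch that holds 11.7% of tested probes. That stretch was chosen after its values were seen and got no test.

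**Figure D2:**
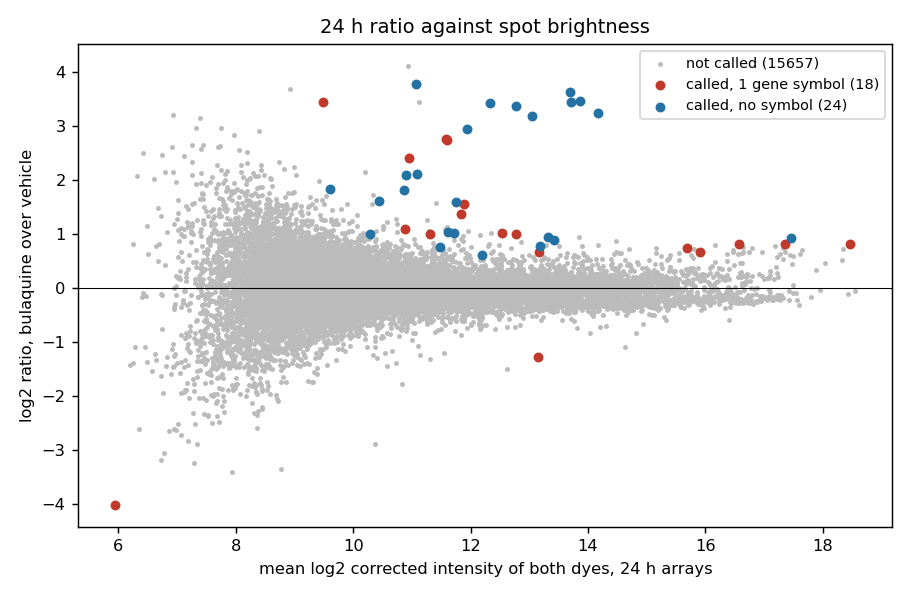
Each point is a tested probe, with the mean log2 corrected intensity of both dyes over the 4 arrays on the horizontal axis and the fitted log2 ratio of bulaquine over vehicle at 24 h on the vertical axis. Called probes with 1 symbol are red (18) and those without a symbol blue (24). All lie at or above the 35.1st percentile of brightness (Apobec4) except Trp53bp1, at the dim lower end at -4.02.

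In sulfur metabolism 1 enzyme gene rose. Cth, cystathionine gamma-lyase, makes cysteine from cystathionine and so feeds glutathione synthesis. Its log2 ratio was 0.81 on F1, 1.08 on F2, 0.42 on R1 and 0.35 on R2. It was higher on every array, more so with the drug in Cy5. It came to a fitted 0.66 (SE 0.10, n = 4 arrays, adjusted p = 0.0361 by limma), a 1.59-fold rise, against 0.03 at 12 h and 0.13 at 6 h. Here and below n counts the arrays of 24 h, while the SE is not the spread of those 4 values. The spot was clear of background, with a median signal-to-noise score of 15.8 in the drug sample and 9.81 in the vehicle sample. This call was kept in 8 of 12 alternatives that leave no array out and in 0 of 4 fits with 1 array of 24 h left out.

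Immune signalling and growth factor signalling each held a called gene. Irak1 encodes a kinase that acts directly below Toll-like and interleukin-1 receptors. It read 0.63 on F1, 0.82 on F2, 0.93 on R1 and 0.58 on R2. The arrays lay close together in both orientations, and the fitted value was 0.74 (SE 0.11, n = 4, adjusted p = 0.0338 by limma). Its other probes stood at -0.34 and 0.06, so the probes of this gene disagreed. In the list of cytokine, chemokine and Toll-like receptor signalling genes 10 of 21 measured members lay above 0 with a median of -0.04. On the probes that list used, Irak1 was the 1 member called.

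Naip3, of a family that senses bacterial proteins and is named for its inhibition of apoptosis, read 1.53 on F1, 1.25 on F2, 0.63 on R1 and 0.58 on R2. Both F arrays lay above both R arrays. Fitted over the arrays it was 0.999 (SE 0.12, n = 4, adjusted p = 0.00802 by limma), close to a doubling, and its other probes read 0.96 (unadjusted p = 0.00479, not called) and 0.22. Genes of the Naip family are close copies of each other, so a spotted probe may read more than 1 of them.

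Smad9, which carries bone morphogenetic protein signals to the nucleus, read 1.47 on F1, 4.28 on F2, 2.81 on R1 and 2.39 on R2. F2 was the highest and F1 the lowest, around a fitted 2.74 (SE 0.38, n = 4, adjusted p = 0.0229 by limma). The vehicle signal was weak, with a median signal-to-noise score of 1.65 against 9.93 in the drug sample, and the ratio was 1.62 with normexp. In the list of bone morphogenetic protein, transforming growth factor beta and SMAD genes, 11 of 22 measured members lay above 0 with a median of 0.06, and Smad9 was the 1 member called. Smad2, which carries transforming growth factor beta signals, read -0.41 (unadjusted p = 0.00687, not called).

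Arhgef12, Sema5a and Enah are given together for their known roles in the actin cytoskeleton or cell guidance, a grouping made after the calls from which nothing is read. Arhgef12, a guanine nucleotide exchange factor that acts on the actin cytoskeleton, read 1.47 on F1, 1.07 on F2, 0.53 on R1 and 0.99 on R2. It was higher on every array, and the fitted value was 1.02 (SE 0.11, n = 4, adjusted p = 0.00707 by limma), a 2.02-fold rise. Its other probe stood at 0.44.

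Sema5a, a transmembrane semaphorin that guides growing axons and vessels, read 1.43 on F1, 1.52 on F2, 0.16 on R1 and 0.15 on R2. Most of its ratio came from the F arrays. The fitted value was 0.82 (SE 0.11, n = 4, adjusted p = 0.0188 by limma). The spot was among the brightest, at the 99.9th percentile, and with normexp its ratio was 1.63. The other Sema5a probe, at the 38.1st percentile, stood at -0.29.

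Enah, an actin-binding protein that promotes filament growth at the leading edge of cells, read 1.13 on F1, 1.34 on F2, 0.39 on R1 and 0.40 on R2. Again both F arrays lay above both R arrays, and the fitted value was 0.82 (SE 0.13, n = 4, adjusted p = 0.0429 by limma). Its ratio was 1.27 with normexp, and its spot was at the 99.2nd percentile of brightness. The 4 other Enah probes ran from -0.57 to 0.73, at percentiles of 9.12 to 70.4.

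Nuclear and RNA-handling genes were called as well. Ncl encodes nucleolin, an abundant nucleolar protein of ribosome production. It read 1.09 on F1, 0.47 on F2, 1.28 on R1 and 1.54 on R2, lowest on F2. The fitted value was 1.10 (SE 0.17, n = 4, adjusted p = 0.0338 by limma), a 2.14-fold rise, and its other probes read 0.91 and 0.25. The ratio was 0.70 without background subtraction and 0.56 with normexp, and the call was kept in 6 of 12 alternatives and in 0 of 4 fits with an array left out. In the list of nucleolus and ribosome biogenesis genes 24 of 42 measured members lay above 0 with a median of 0.05, and Ncl was the 1 called. Npm1, the gene of another major nucleolar protein, read 0.69 (unadjusted p = 0.0396) and Polr1b, of RNA polymerase I, -0.46 (unadjusted p = 0.00793), neither called.

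Ascc3, a helicase that acts in DNA alkylation repair and in clearing stalled ribosomes, read 2.05 on F1, 1.93 on F2, 0.63 on R1 and 0.87 on R2. Both F arrays were above both R arrays, and the fit gave 1.37 (SE 0.20, n = 4, adjusted p = 0.0245 by limma) and its other probes read 0.36, 0.23 and -0.13. Of splicing factors and RNA helicases, 58 of 107 measured lay above 0 with a median of 0.03, and Ascc3 was the 1 called.

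Apobec4, a member of the cytidine deaminase family of APOBEC enzymes, was measured against a vehicle signal near background. It read 4.01 on F1, 3.94 on F2 and 3.93 on R1, but 1.91 on R2. The fit gave 3.45 (SE 0.34, n = 4, adjusted p = 0.00707 by limma, with 1 array of another time missing). The vehicle signal-to-noise scores were 0.226 on F1, 0.329 on F2, 0.146 on R1 and 0.341 on R2, against 1.42 to 7.31 in the drug sample. The ratio depended on the treatment of the background and was 1.48 without background subtraction and 1.04 with the normexp correction.

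Nin encodes ninein, which anchors microtubules at the centrosome. It read 1.98 on F1, 3.54 on F2, 2.54 on R1 and 1.57 on R2, highest on F2. The fitted value was 2.41 (SE 0.27, n = 4, adjusted p = 0.00707 by limma). The vehicle signal-to-noise score was 0.734 to 1.28, and the ratio was 1.56 without background subtraction and 1.27 with normexp. Of centrosome and centriole genes 9 of 15 measured lay above 0 with a median of 0.15, and Nin was the 1 called. Akap9, a scaffold of the centrosome and Golgi, came close with even values on the 4 arrays, 0.64, 0.76, 0.98 and 0.71 on F1, F2, R1 and R2. Its fitted value was 0.77 (adjusted p = 0.0516 by limma), just outside the threshold. Gm1968, a predicted gene, read 1.92 on F1, 3.82 on F2, 2.54 on R1 and 2.78 on R2, for a fitted 2.77 (SE 0.31, n = 4, adjusted p = 0.00707 by limma), while its other probe stood at -0.09. With normexp the ratio of Gm1968 was 1.73.

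The other genes called higher are known mainly from work on neurons. Cntnap2, an adhesion protein of myelinated axons, read 1.99 on F1, 2.58 on F2, 0.94 on R1 and 0.74 on R2, with a fitted 1.56 (SE 0.21, n = 4, adjusted p = 0.0188 by limma) and its other probe at -0.27. Grid1, a subunit of the delta family of glutamate receptors, read 1.43 on F1, 1.09 on F2, 0.60 on R1 and 0.85 on R2, with a fitted 0.99 (SE 0.14, n = 4, adjusted p = 0.0277 by limma, 1 array of another time missing). In both genes the F arrays lay above the R arrays, and Grid1 was at 0.55 without background subtraction.

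Gdap1, a protein of the mitochondrial outer membrane that takes part in fission, read 1.42 on F1, 1.41 on F2, 0.29 on R1 and 0.15 on R2, with a fitted 0.82 (SE 0.12, n = 4, adjusted p = 0.0256 by limma). Its spot was one of the brightest on the arrays, and its ratio was 1.75 with normexp. The other Gdap1 probe, at the 22.1st percentile of brightness, read 0.10. Whether so bright a spot reads this gene alone was not tested. Htt, the huntingtin gene, read 0.84 on F1, 0.80 on F2, 0.67 on R1 and 0.41 on R2, with a fitted 0.68 (SE 0.11, n = 4, adjusted p = 0.0427 by limma) and its other probe at 0.13. The called Htt spot was at the 98.3rd percentile of brightness and the other probe at the 15.5th. Gdap1 depended on the dye orientation, while Htt was similar on 3 of the 4 arrays and lowest on R2.

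Of the 2 genes that were lower, Camk2b was well measured. It encodes the beta subunit of a calcium and calmodulin dependent kinase. It read -1.12 on F1, -1.68 on F2, -1.06 on R1 and -1.24 on R2, so all 4 arrays agreed in sign and size. The fitted value was -1.27 (SE 0.14, n = 4, adjusted p = 0.0174 by limma, with 2 arrays of other times missing), a 2.42-fold fall. The median signal-to-noise score was 19.2 in the vehicle sample and 7.29 in the drug sample. This call was kept in 7 of 11 alternatives that leave no array out and in 1 of 4 that do.

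Trp53bp1 encodes 53BP1, a protein of DNA double-strand break repair. The probe was called at -4.02 (SE 0.44, n = 4, adjusted p = 0.00913 by limma, with 1 array of another time missing), from -1.98 on F1, -4.53 on F2, -4.36 on R1 and -5.21 on R2. Neither sample was above background. The signal-to-noise score of the drug sample was 0.234 on F1, 0.00900 on F2, 0.0200 on R1 and 0.00400 on R2, and that of the vehicle sample ran from 0.12 to 0.83. Without background subtraction the log2 ratio was -0.15 and with normexp -0.14, and the gene's other probe read -0.13. No fold change is therefore given for it.

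**Figure D3:**
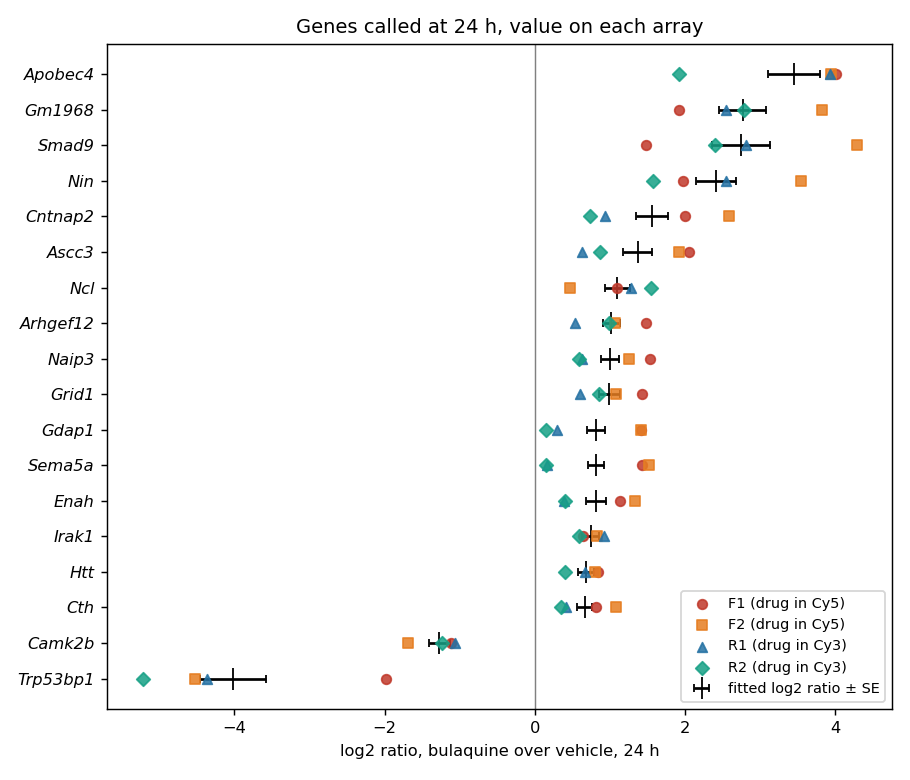
The log2 ratio of bulaquine over vehicle at 24 h on each of the 4 arrays (coloured symbols) for the 18 called genes with 1 symbol, with the fitted value and its SE in black. Symbols of 1 gene all lie on one side of 0, and for Gdap1, Sema5a and Enah the arrays with the drug in Cy5 (circles and squares) stand apart from those with it in Cy3.

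Other probes of the called genes gave little second measurement. Of the 18 genes 6 had a single tested probe. The other 12 had 20 further probes, of which 12 lay above 0, over a range of -0.57 to 0.96, and 0 were called. At an unadjusted p under 0.05 there were 2, Naip3 in the same direction and Irak1 in the opposite one. Over the 12 alternatives and 4 fits with an array left out, 0 of the 18 genes changed sign. Each had 1 sign on all 4 arrays to begin with, and several alternatives reuse the same ratios. A change of sign was thus unlikely from the outset, and its absence says little. Each call was kept in 4 to 8 of the alternatives that leave no array out. With 1 array left out, Apobec4 and Arhgef12 kept their call in 3 of 4 fits, Nin in 2, 6 genes in 1 and 9 in 0.

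The sequences around the start of Arhgef12 and Camk2b are shown because these were the rise that also stood apart from 12 h, described further on, and the fall that was measured above background. Each run holds 250 bases before and 50 after the start of the gene in RefSeq on GRCm38.p6, read along the gene's own strand. The motif GGGCGG, the core of the GC box bound by Sp1, was searched on both strands and is in capitals, and matches may overlap. Arhgef12 lies on the minus strand at chr9:43105669-43105968 and had 2 matches. Camk2b lies on the minus strand at chr11:6065699-6065998 and had 3.
Arhgef12: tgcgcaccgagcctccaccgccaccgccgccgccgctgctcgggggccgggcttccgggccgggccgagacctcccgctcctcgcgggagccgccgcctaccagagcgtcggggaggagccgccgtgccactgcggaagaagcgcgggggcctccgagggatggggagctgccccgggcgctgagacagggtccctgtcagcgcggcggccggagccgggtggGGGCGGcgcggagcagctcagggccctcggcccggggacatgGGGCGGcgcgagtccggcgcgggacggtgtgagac
Camk2b: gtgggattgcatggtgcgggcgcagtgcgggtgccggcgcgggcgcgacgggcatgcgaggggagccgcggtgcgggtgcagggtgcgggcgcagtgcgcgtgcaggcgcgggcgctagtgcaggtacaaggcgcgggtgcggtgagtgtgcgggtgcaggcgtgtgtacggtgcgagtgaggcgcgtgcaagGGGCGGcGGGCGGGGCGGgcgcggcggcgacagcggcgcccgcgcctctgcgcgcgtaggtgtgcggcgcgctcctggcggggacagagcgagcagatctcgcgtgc
A window was found for 14 of the 18 called genes, and 12 of those genes had the motif in a window. So did 69.3% of 5777 tested genes with a window. Counted by window and not by gene, 35.7% of all 32851 windows held it. The motif is thus common among tested genes, and a match is a description of the letters alone.

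Set against the earlier times, most called probes were either high at 12 h already or near 0 there. Of the 40 higher probes 37 had a 12 h value. In 13 of them the 12 h ratio was above 1, from 1.15 to 2.48, with 24 h ratios of 2.10 to 3.46. These were Apobec4 (1.15 at 12 h), Gm1968 (2.48), Smad9 (2.33) and Nin (1.51), with 9 probes that have no symbol. In 11 of the 13 the highest array at 24 h was F2. The lowest adjusted p of their difference between 24 h and 12 h was 0.199 by limma, so none was called different from 12 h.

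The remaining 1 stood between these classes, at 0.61 at 12 h. In 23 of the 37 the 12 h ratio was below 0.5, among them Cth (0.03), Arhgef12 (-0.14), Irak1 (-0.01), Ncl (-0.08) and Naip3 (-0.01). The direct test of 24 h against 12 h called 18 of 12579 probes (0.143%) by limma, 7 higher at 24 h and 11 lower. All 7 higher probes were also called at 24 h itself. Their 24 h ratios ran from 0.78 to 1.84 and their 12 h ratios from -0.34 to 0.11. Arhgef12 was the 1 named gene among them, with a difference of 1.16 (SE 0.16, adjusted p = 0.0405 by limma), and the other 6 had no symbol. Among these were the probes of spot 2057 (a difference of 1.78) and of spot 2534 (1.73).

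The probe of spot 2534 read 1.98 on F1, 1.57 on F2, 1.75 on R1 and 2.07 on R2. Its arrays lay close together in both orientations, but the vehicle signal was near background, with signal-to-noise scores of 0.30 to 0.73. The 24 h ratio was 0.71 without background subtraction and 0.60 with normexp, so its size depended on that choice. As fitted it was at 1.84 at 24 h (SE 0.17), 0.11 at 12 h and -0.37 at 6 h, and it was the 1 probe higher than at both earlier times. Its 24 h minus 6 h difference was 2.22 (SE 0.24, adjusted p = 0.0306 by limma). The probe of spot 2057 stood at 1.83 at 24 h (SE 0.17), from 2.44 on F1, 2.15 on F2, 1.35 on R1 and 1.36 on R2, and at 0.05 at 12 h. Its 24 h ratio was 1.11 without background subtraction and 0.94 with normexp.

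The 11 probes lower at 24 h than at 12 h were ones that had been raised at 12 h and were back near 0, from 1.44 to 1.95 at 12 h and from -0.05 to 0.28 at 24 h. Cetn2, which encodes a centriole protein, went from 1.74 to 0.18, a difference of -1.56 (SE 0.17, adjusted p = 0.0164 by limma). A further 3 probes list the alpha globin genes Hba-a1 and Hba-a2 together with the histone gene H3f3a, and 7 have no symbol. The single-symbol H3f3a probe used for the gene read 0.59 at 24 h (unadjusted p = 0.00943, not called).

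The test of 24 h against 6 h called 2 of 13845 probes (0.0144%), the probe of spot 2534 and Mt2. Metallothioneins bind zinc and copper and are induced by metals, glucocorticoids and oxidative stress. At 24 h Mt2 read 0.02 on F1, -0.01 on F2, 0.51 on R1 and -0.39 on R2, and Mt1 read 0.42, 0.28, -0.14 and -0.46 in the same order. The arrays lay on both sides of 0, with fitted values of 0.03 (SE 0.15) for Mt2 and 0.03 (SE 0.12) for Mt1. The difference from 6 h was -2.04 for Mt2 (SE 0.21, adjusted p = 0.0306 by limma) and -1.43 for Mt1 (SE 0.17, adjusted p = 0.0506), which missed the threshold. The other Mt2 probe read 0.08 at 24 h, and its difference from 6 h was -1.001 (SE 0.19, adjusted p = 0.153), not called. A test of 24 h against 12 h called neither (adjusted p = 0.482 and 0.599).

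**Figure D4:**
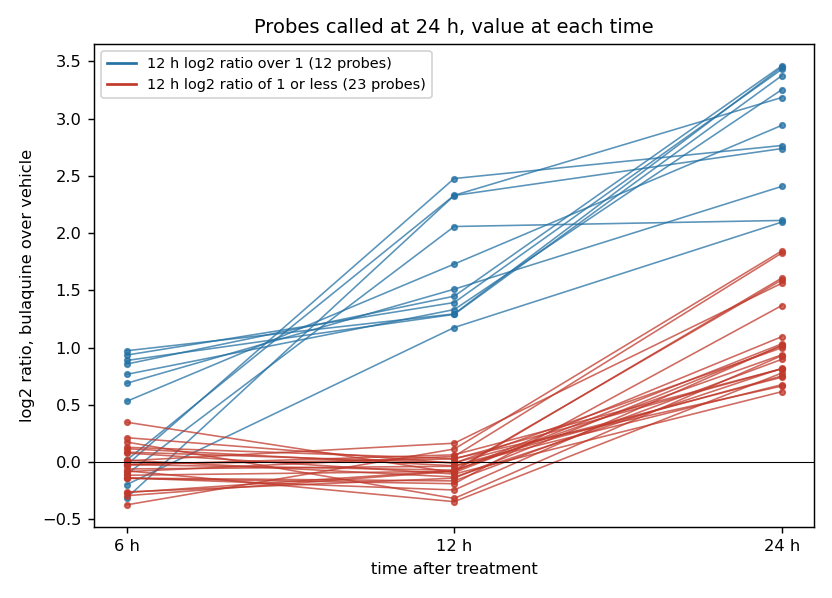
The fitted log2 ratio of bulaquine over vehicle (vertical axis) at 6 h, 12 h and 24 h for the 35 called probes with values at all 3 times. The 12 blue lines were above 1 at 12 h and are the highest at 24 h, while the 23 red lines stayed near 0 until 24 h.

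Most pathways of drug handling showed small ratios at 24 h. The lists of pathway and cell type genes used 1 probe per gene, and over all 7177 genes 3602 (50.2%) lay above 0 with a median of 0.00. At an unadjusted p under 0.05 there were 10.4% of these genes, 4.42% higher and 5.94% lower. Over the 47 lists with at least 4 measured members the median ran from -0.30 to 0.32, and in 31 it was within 0.1 of 0. Of 1452 distinct list genes 8 were called, all of them higher, and over all 7177 genes, on the same probes, 15 were called higher and 1 lower.

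In the supply of sulfur amino acids and thiols, 8 of 11 measured members lay above 0 with a median of 0.32. Cth was called, and 2 others had an unadjusted p under 0.05 without a call. Vnn1, pantetheinase, which releases the thiol cysteamine, read 1.40 on F1, 1.95 on F2, 1.67 on R1 and 0.71 on R2, for a fitted 1.43 (SE 0.31, adjusted p = 0.146 by limma), on a dim spot at the 19.2nd percentile of brightness. Bhmt, which remethylates homocysteine, read 0.60 (unadjusted p = 0.0104). The median of the list was -0.43 on F1, -0.26 on F2, 0.58 on R1 and 0.72 on R2, so its sign followed the dye orientation.

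Among antioxidant and Nrf2 target genes 13 of 17 lay above 0 with a median of 0.06. Txnrd1, thioredoxin reductase, had an unadjusted p under 0.05, with 0.67, 0.88, 0.32 and 0.42 on F1, F2, R1 and R2, higher with the drug in Cy5 (fitted 0.57, adjusted p = 0.331 by limma). Of phase I enzymes 10 of 14 lay above 0 with a median of 0.09. Aldh3a2, a fatty aldehyde dehydrogenase, read 1.99, but this came from F1 at 6.04 against 0.35 to 0.90 on the other arrays. Of phase II enzymes 8 of 11 lay above 0, again with a median of 0.09. The glutathione transferase gene Gstm2 read -0.16 on F1, 0.18 on F2, 0.72 on R1 and 1.07 on R2 (fitted 0.45, adjusted p = 0.219 by limma), Gsto1 0.60 and Mgst1 0.36. None of these 3 lists held a called gene. Of 6 hepatic transporters 4 lay above 0 and 0 had an unadjusted p under 0.05.

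Genes of heme and iron had a median of -0.13, with 7 of 19 measured above 0 and 0 called. Alad, the enzyme of an early step of heme synthesis, read -1.78 on F1, -0.93 on F2, -0.04 on R1 and -0.12 on R2 (fitted -0.72, adjusted p = 0.199 by limma), so its ratio came from the F arrays. Alas1, the rate-limiting enzyme of that pathway, read -0.32 with F and R arrays of opposite sign, and Slc11a2, an iron importer, 0.80 with 2.07 on F1.

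Lists of lipid metabolism had medians near 0 and few members with an unadjusted p under 0.05. Of sterol synthesis genes 10 of 18 lay above 0 with a median of 0.04. Insig1, which retains the sterol-regulated transcription factors in the endoplasmic reticulum, read -0.40 on F1, -0.06 on F2, -0.86 on R1 and -1.39 on R2, for a fitted -0.68 (SE 0.12, adjusted p = 0.0914 by limma), and the lanosterol synthase gene Lss read -0.41. Of lipogenesis genes 10 of 20 lay above 0 with a median of -0.01. The stearoyl-CoA desaturase gene Scd1 read -0.54 (unadjusted p = 0.00418) with F1 at 0.11 and R2 at -0.95, and the desaturase gene Fads1 read -0.40. Of fatty acid oxidation and peroxisome genes 17 of 31 lay above 0 with a median of 0.04, and at an unadjusted p under 0.05 Crot read 0.38, Hadh 0.56 and Acot3 -0.28. None of these 3 lists held a called gene.

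Secreted liver proteins gave a mixed picture. Of 13 major secreted proteins 4 lay above 0 with a median of -0.12, and the list median was -0.53 on F1, -0.51 on F2, 0.28 on R1 and 0.38 on R2. Apob, of lipoprotein particles, read 0.78 on F1, 0.93 on F2, 0.33 on R1 and 0.38 on R2 (fitted 0.60, adjusted p = 0.208 by limma), and Ttr -0.36. Of acute phase genes 5 of 6 lay above 0 with a median of 0.10. The iron-sequestering protein gene Lcn2 read 0.88 (unadjusted p = 0.0164), from 0.22 on F1, 1.02 on F2, 0.48 on R1 and 1.80 on R2, and the lipopolysaccharide-binding protein gene Lbp 0.42.

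Interferon-inducible genes lay on both sides of 0 with 0 called. Of 20 measured 12 lay above 0 with a median of 0.18. At an unadjusted p under 0.05, 5 were higher and 2 lower. Ifit3 read 1.01 (from 0.44 on R2 to 1.81 on F2) and the guanylate-binding genes Gbp2 and Gbp6 1.36 and 0.42, while the interferon signalling factor gene Irf9 read -0.61 and the antiviral gene Rsad2 -0.93, each of the last pair of 1 sign on 4 arrays. Iigp1 read 2.10 on a dim spot, with 5.65 on R2 against 0.69 to 1.16 on the other arrays. All of these spots but Gbp6 lay below the 40th percentile of brightness.

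Markers of other cell types had values that a change in cell numbers or in RNA per cell could both give, and these cannot be told apart in whole liver. Of 8 measured macrophage and Kupffer markers 7 lay above 0 with a median of 0.28. At an unadjusted p under 0.05 there were 3, and 0 were called. Cybb, a subunit of the phagocyte oxidase, read 0.65 on F1, 1.02 on F2, 0.21 on R1 and 0.30 on R2 (fitted 0.54, SE 0.10, adjusted p = 0.0918 by limma), Fcer1g 0.64 and Mpeg1 0.74. The list median was 0.64 on F1, 0.88 on F2, 0.11 on R1 and 0.15 on R2. It was above 0 on each array, but its size followed the dye orientation and was small on both R arrays. Irak1 and Naip3, which are not on this list but which immune cells express too, were called. The other Irak1 probes stood at -0.34 and 0.06 and the other Naip3 probes at 0.96 and 0.22, none of them called. The 0.22 is from the brightest Naip3 probe. The part of immune cells in the ratios of Irak1 and Naip3 was not tested.

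Of 6 lymphocyte markers 1 lay above 0 with a median of -0.30, and the immunoglobulin joining chain gene Jchain read -0.55 and the T cell receptor gene Cd3e -0.43, neither called. Neutrophil (3 of 7 above 0, median -0.06), endothelial (3 of 7, median -0.05), stellate cell and fibroblast (12 of 18, median 0.07), bile duct (2 of 4, median 0.05) and erythroid markers (3 of 6, median 0.21) had 0 calls. The erythroid median was -1.07 on F2 and 1.30 and 1.36 on R1 and R2. Cpa1, a digestive enzyme gene of the exocrine pancreas and the 1 measured gene of a list of fat, muscle and pancreas markers, read -2.90 on F1, -2.79 on F2, -2.67 on R1 and -3.20 on R2. These 4 values were close together. The SE of 0.48 also takes in the spread on the arrays of other times, of which 2 were missing. The fitted ratio of -2.89 was not called (adjusted p = 0.0918 by limma). Its size depended on the processing, from -3.12 to -1.39 over all fits. Of 11 alternatives that leave no array out and gave it a value, 4 called it.

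**Figure D5:**
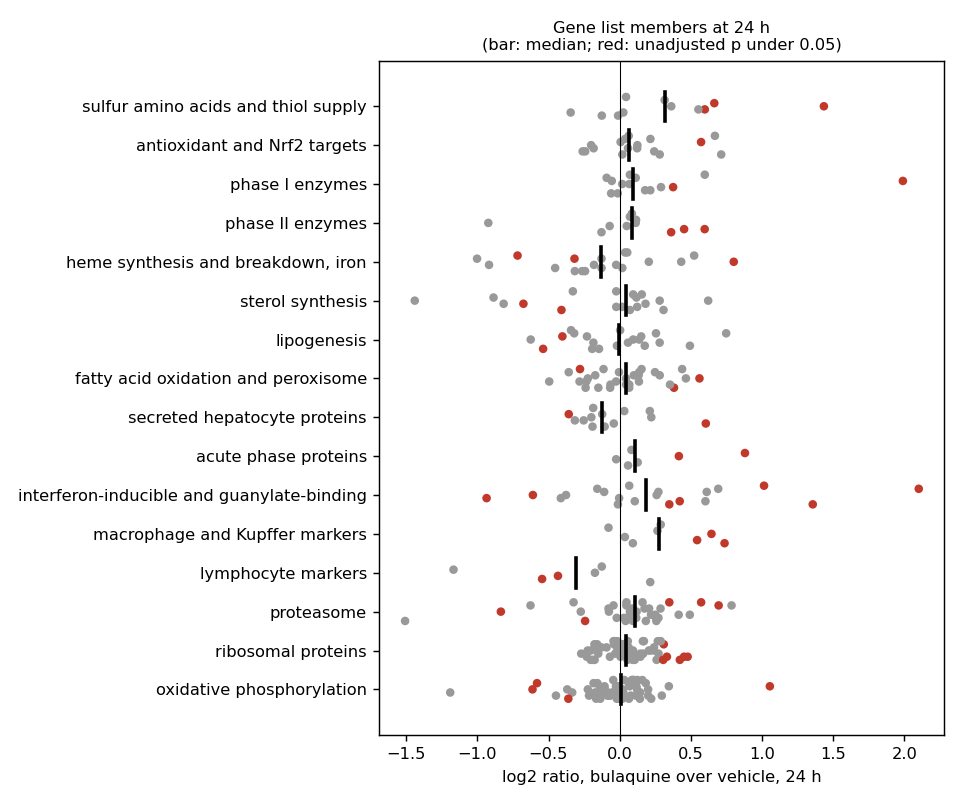
Each point is a gene of the list named at the left, placed by its fitted log2 ratio of bulaquine over vehicle at 24 h, with red for an unadjusted p under 0.05 and a black bar at the list median. Medians lie between -0.30 (lymphocyte markers) and 0.32 (sulfur amino acids and thiol supply), and ribosomal proteins lie between -0.27 and 0.48.

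Lists of large protein complexes had medians near that of all genes. Of 58 ribosomal protein genes 36 lay above 0 with a median of 0.04 and values between -0.27 and 0.48. At an unadjusted p under 0.05, 6 were higher and 0 lower, and in 3 of these, Rpl15, Rplp1 and Rps18, both F arrays lay below 0 and both R arrays above. Of 59 oxidative phosphorylation genes 30 lay above 0 with a median of 0.01, and Ndufb9, a subunit of complex I, read 1.05 (unadjusted p = 0.00562). Of 36 proteasome genes 26 lay above 0 with a median of 0.10. None of these lists held a called gene.

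Stress and growth lists were likewise without calls. Heat shock proteins and chaperones had 32 of 57 above 0 (median 0.04), the unfolded protein response 20 of 32 (median 0.10), p53 targets and apoptosis 15 of 24 (median 0.11) and the cell cycle 21 of 42 (median 0.00). Of 10 clock genes 2 lay above 0 with a median of -0.19, and the repressor gene Cry2 read 1.54 (unadjusted p = 0.00309) with 3.20 on F1. In urea cycle and amino acid breakdown 10 of 25 lay above 0 with a median of -0.06. Oat, ornithine aminotransferase, read -0.94 on F1 and from -0.51 to -0.46 on the other arrays (fitted -0.60, adjusted p = 0.199 by limma).

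Further lists of signalling and traffic had medians just below 0. Raf, MAP kinase and PI3 kinase genes had 20 of 44 above 0 with a median of -0.07. Pebp1, which inhibits Raf, read -0.15 on F1, -0.13 on F2, 1.81 on R1 and 2.53 on R2. Its arrays were of opposite sign in the 2 dye orientations, and the fitted 1.02 was not called (adjusted p = 0.0603 by limma). Dusp6, a phosphatase that shuts off ERK, read -0.74 (unadjusted p = 0.00682), from -1.02 on R2 to -0.52 on F2. Of 149 vesicle traffic genes 72 lay above 0 with a median of -0.01, and 10 were lower at an unadjusted p under 0.05 against 2 higher. The cargo receptor gene Tmed3 (0.59, adjusted p = 0.0918 by limma) read 1.15 and 1.07 on the F arrays and 0.10 and 0.04 on the R arrays.

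Also outside the threshold, the mitochondrial ribosome gene Mrps25 read 0.79 (adjusted p = 0.0674) and the ubiquitin ligase gene Ube4a 0.67 (adjusted p = 0.0947), both by limma. Akap9 (adjusted p = 0.0516) and Pebp1 (adjusted p = 0.0603), given above, lay closer to it by limma. Ube4a was at 0.59, 0.59, 0.57 and 0.92 on F1, F2, R1 and R2, above 0 in both orientations with R2 the highest. Of the list of ubiquitin genes 82 of 171 lay above 0 with a median of -0.01 and 0 were called, and of the mitochondrial ribosome 22 of 47 with a median of -0.02 and 0 called.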

How the data were processed

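Total RNA of mouse liver was labelled with Cy3 or Cy5 and hybridised to spotted arrays, 4 per time point with the dyes swapped on 2, per the labels. Slides were scanned with ImageQuant 5.0, spots were read with ArrayVision 8.0, and background-corrected ratios were LOWESS normalised in Avadis 4, per the series text and the submitters' processing notes. The deposited files give foreground, background and corrected intensity per dye and a signal-to-noise score per spot. The authors' deposited log2 ratios correlated at 0.9998 or more with the ratios recomputed here on the 24 h arrays.

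Corrected intensities of 0 were set to missing, and log2(Cy5/Cy3) was normalised by 1 loess per array (span 0.3, 4 iterations). Probes with a value on all 4 arrays of 24 h entered linear models in limma (version 3.58.1, R version 4.3.3). The models hold a column for each time, signed by which dye the drug carried, and a dye effect per probe. All 12 arrays were used (8 residual degrees of freedom, 9.61 with the eBayes prior), and an array of another time with a missing value was dropped for that probe. Probes were called where the Benjamini-Hochberg adjusted p, over all tested probes, was under 0.05. The direct tests used contrasts of the same fit on probes complete at both times. The median SE of a log2 ratio was 0.28, and the number of arrays limits the precision.

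Symbols came from the platform annotation after the blocks were moved, 14956 of 15114 spots with 1 symbol matched a RefSeq gene of GRCm38.p6, and both layouts place 960 spots alike. Brightness percentiles are of mean log2 intensity at 24 h over tested probes, except that those given with the hepatocyte markers use the vehicle signal. Genes named are the called probes with 1 symbol and 1 sign on 4 arrays, list members of smallest unadjusted p (at most 6 a list, on the brightest probe of a gene), the largest differences in each direct test, Mt1 and Mt2, and at most 2 probes without a symbol. The members and lists were chosen with earlier results of these data known. F and R arrays of 1 number correlated in their deviations at -0.34 and -0.19 at 24 h, against -0.31 and -0.22 for different numbers, so the numbers were not taken to pair the samples. The result of 1 gene list is not reported here.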

Additional observations from a re-analysis of the deposited data

Results flagged for a closer look

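In 7 of 142 genes examined, 1 of the 4 arrays at 24 h stood far from the others, by a gap above Dixon's critical share of the range. Chance flags about 1 in 20 sets of 4 values drawn alike. These genes were chosen by p and their arrays differ in dye orientation, so 7 of 142 cannot be set against that rate. Apobec4 was at 1.91 on R2 against 3.93 to 4.01, Aldh3a2 at 6.04 on F1 against 0.35 to 0.90, and Iigp1 at 5.65 on R2 against 0.69 to 1.16. Oat was at -0.94 on F1 against -0.51 to -0.46, Ddx3x at 1.79 on F2 against 0.05 to 0.29, Psmd12 at -2.90 on R2 against -0.34 to 0.15, and Ube4a at 0.92 on R2 against 0.57 to 0.59. Of these, Apobec4 was the 1 gene called.

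The drug effect differed between times for 3 genes by the direct limma test. Cetn2 was lower at 24 h than at 12 h by a difference of -1.56 (adjusted p = 0.0164), Arhgef12 higher by 1.16 (adjusted p = 0.0405), and Mt2 lower at 24 h than at 6 h by a difference of -2.04 (adjusted p = 0.0306).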

How the results depend on the processing

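The counts of called probes depended on the processing, and the cause was not tested. At 24 h (42 called), against 12 h (18) and against 6 h (2), they were 161, 82 and 78 without background subtraction, 101, 38 and 24 when the dimmest 30% of probes were left out, 97, 0 and 6 with normexp, 16, 0 and 2 with no dye effect, and 0, 0 and 0 with trend and robust eBayes, a choice under which 1664, 1051 and 1196 had an unadjusted p under 0.05. With the 24 h arrays alone 0 were called (1194 unadjusted), and with the trend alone, added after seeing the data, 7. Loess within blocks gave 57, 21 and 10, median centring 39, 19 and 5, and probes measured on all 12 arrays 56, 21 and 22. The split at 24 h was 40 higher and 2 lower, against 73 and 24 with normexp, and against 12 h it was 7 and 11, against 4 and 15 with median centring and 54 and 28 without background subtraction. Against 12 h, 1481 probes with normexp and 559 with no dye effect had an unadjusted p under 0.05. With the dye-swap number as a replicate block (consensus correlation -0.15) the counts were 89, 35 and 24, and with the pairs averaged 0, 0 and 0 (1605, 970 and 1101 unadjusted). The labels do not say whether F1 and R1 share more than a number. Leaving out 1 array of 24 h gave 0 to 21, 0 to 8 and 0 to 18. Without F2 all 3 counts were 0 (1283, 791 and 915 unadjusted), and without R2 that against 12 h was 0 (943 unadjusted). The deposited log ratios gave 41, 18 and 2. Of the 42 probes called at 24 h, 40 were also called without background subtraction and 33 with normexp. Among 124 uncalled list genes followed, 16 were called under some alternative, and Psma7 (-0.24) turned to 0.26 with normexp. Low signal over background limits every ratio of a dim spot.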
